A study of Mus musculus with 18 samples.

Results

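The purinergic genes of microglia were followed through sorted microglia of the embryonic mouse hippocampus: the nucleotide receptors P2ry12, P2ry13, P2ry6, P2rx4 and P2rx7, the ectonucleotidase Entpd1 and the adenosine receptor Adora3. They were taken as a pathway, chosen with earlier results of these data known. Every probe set of the array that names 1 of them alone was taken. This gave 15 probe sets of 7 genes, of 34958 probe sets of 18194 genes in all that name a single gene. P2ry12, P2ry13 and P2ry6 had 1 probe set each, P2rx4 had 4, P2rx7 and Entpd1 had 3 each, and Adora3 had 2. The probe set with the highest mean over all arrays stands for a gene unless another is named.

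The study hybridised 18 arrays of CX3CR1-GFP+ cells, sorted from enzymatically dissociated hippocampi of C57BL/6 embryos at embryonic day E17.5, with the embryos pooled per pregnant dam. Wild-type embryos of dams given LPS, a bacterial endotoxin that produces maternal inflammation, made 4 arrays, and wild-type embryos of dams given PBS made their 4 controls. Untreated DAP12-/- mutant embryos, which lack the signalling adaptor encoded by Tyrobp, made 4 arrays (DAP12KO), and 6 arrays of untreated wild-type embryos (UT) were their controls. The sources used here state neither the dose nor the day of the LPS injection, the sex of the embryos is labelled unknown, and the sorting marker is shared by microglia and other macrophages that express CX3CR1. Each array's label ends in a year, written here as the label has it; LPS and PBS each had 1 array of _2008, 2 of _2010 and 1 of _2013, DAP12KO had 4 of _2013, and UT had 4 of _2013 and 2 of _2012. With label year in the fit, the UT arrays of _2012, a year with no other group, add to the estimate of spread alone, so DAP12KO minus UT compares 4 arrays with 4 of _2013.

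Cells release ATP and ADP when they are active or damaged, and microglia sense these nucleotides through 2 receptor families. P2Y receptors are coupled to G proteins, and P2X receptors are cation channels opened by ATP. Entpd1 (CD39) is the cell-surface enzyme that degrades ATP and ADP to AMP, and AMP is then turned into adenosine, the ligand of Adora3 and its relatives. P2ry12 is among the best known markers of resting microglia, where it directs process movement towards ADP.

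Microglia markers were high in all arrays, but not equally so. The mean of 22 microglia markers, none of them a member, was 10.88 and 11.11 on the log2 scale for PBS of _2010 (2 arrays), below the 12.11 to 13.13 of every other array (16). In these PBS arrays the mean of 17 neuron markers was 10.39 and 10.45, against 5.85 to 8.96 in the other 16, and the mean of 11 neural progenitor markers was 11.21 and 11.23. The mean of 6 monocyte and neutrophil markers stayed between 2.19 and 3.41 in all arrays, close to the lowest value of the table, 2.19, while that of 6 border-associated macrophage markers ranged from 8.65 to 12.34. RNA quality differed as well: the 3' minus 5' difference of the Gapdh control probe sets was 2.01 to 3.33 in the arrays of _2008 and _2010, 0.89 to 1.20 in 9 of the 10 arrays of _2013, 2.23 in the UT array of _2013 numbered 2, and 1.31 and 2.77 in the UT arrays of _2012. Tyrobp itself, by its only probe set, was 13.75 to 14.23 in DAP12KO and 14.29 to 14.55 in UT. The sources used here do not say whether the mutation removes the sequence that this probe set reads. In bulk samples such as these, fewer cells of a type and less RNA per cell cannot be told apart.

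None of the 15 probe sets passed an adjusted p of 0.05 in any of the 4 comparisons fitted (limma with label year as a term, Benjamini-Hochberg adjustment over 22512 probe sets). The comparisons called few probe sets of any kind: 0.0267% of those tested for LPS minus PBS, 0% for DAP12KO minus UT, 0.00444% for the difference of these responses, and 0.0622% for PBS minus UT. At an unadjusted p under 0.05, limma counted 12.3%, 5.48%, 8.19% and 4.89% of all probe sets in the same order, and 2, 1, 1 and 0 of the 15 member probe sets. Groups that did not overlap were found for 0 of the 15 in LPS against PBS (2.23% of all probe sets tested), for 0 in DAP12KO against UT within _2013 (2.31%) and for 0 over all years (0.84%). Among the members the lowest adjusted p was 0.176 (P2ry12, LPS minus PBS). The values themselves were nevertheless structured by label year and by the PBS arrays of _2010, as follows.

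**Figure D1:**
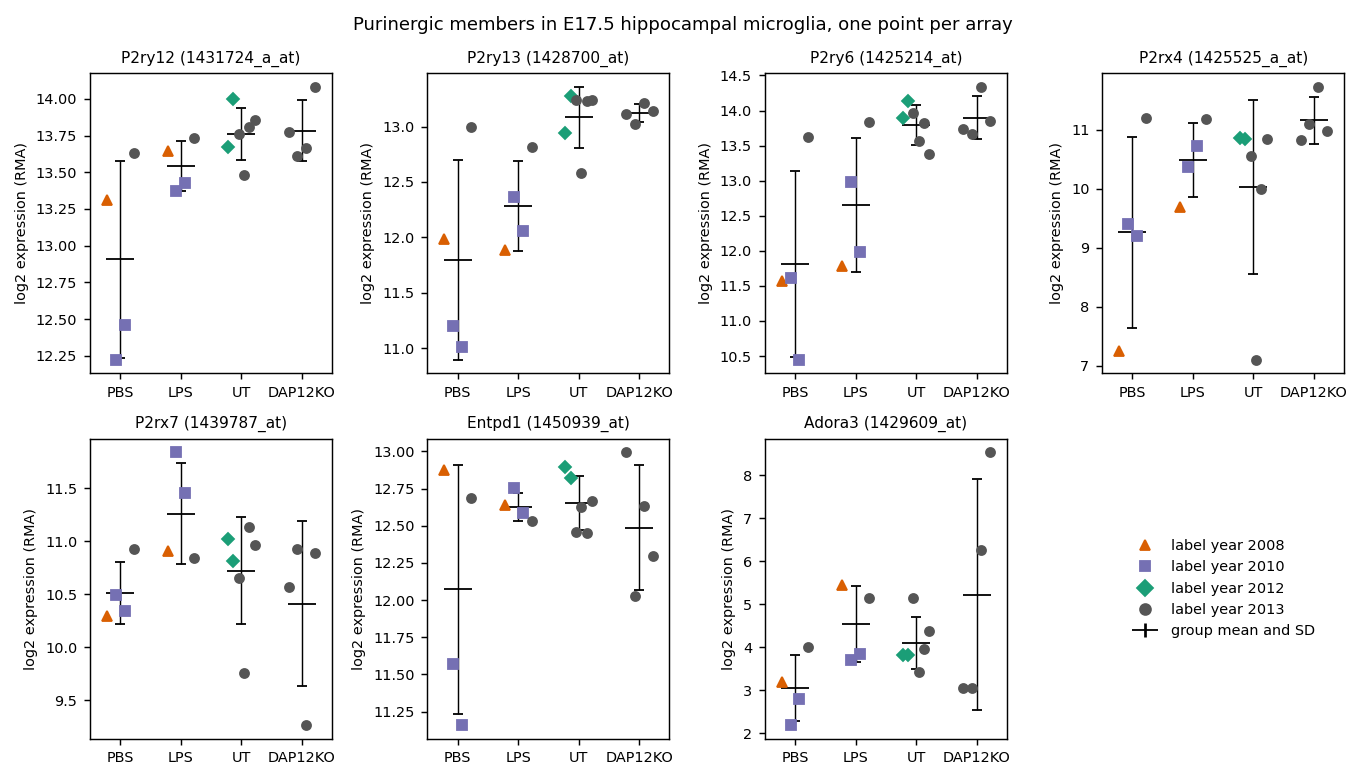
Log2 expression (RMA, vertical axis) of the brightest probe set of each of the 7 genes in the 4 groups (horizontal axis), 1 point per array with the shape and colour giving the label year, and the black bar and whiskers giving the group mean and SD. The PBS arrays of _2010 are the lowest points for P2ry12, P2ry13, Entpd1 and Adora3, and 1 UT array lies at 7.10 for P2rx4.

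P2ry12 and P2ry13, both receptors for ADP coupled to inhibitory G proteins, lie near each other on chromosome 3 and varied together in these arrays. Their promoters are shown to set the neighbours side by side, 250 bases before to 50 after the gene start in the RefSeq annotation of GRCm38.p6, both on the minus strand, at chr3:59262936-59263235 for P2ry12 and chr3:59210833-59211132 for P2ry13. Capitals mark the word GAGGAAG, searched on both strands as a form of the site of PU.1, the myeloid lineage factor.
P2ry12: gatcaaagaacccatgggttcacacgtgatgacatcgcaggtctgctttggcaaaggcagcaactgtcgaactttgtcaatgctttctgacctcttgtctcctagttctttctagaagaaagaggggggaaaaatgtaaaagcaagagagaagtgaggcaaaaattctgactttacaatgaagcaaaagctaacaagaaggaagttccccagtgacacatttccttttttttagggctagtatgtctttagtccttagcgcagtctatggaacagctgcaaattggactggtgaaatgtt
P2ry13: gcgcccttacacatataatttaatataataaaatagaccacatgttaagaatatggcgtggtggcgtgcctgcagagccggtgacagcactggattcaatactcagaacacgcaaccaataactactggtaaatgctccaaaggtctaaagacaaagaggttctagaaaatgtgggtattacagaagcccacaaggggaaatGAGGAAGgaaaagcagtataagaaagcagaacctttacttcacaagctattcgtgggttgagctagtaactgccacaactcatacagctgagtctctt
The word was found once in the P2ry13 window, starting at -48 relative to the gene start, and not in the P2ry12 window. Of the other members, Adora3 held it at -29, P2rx7 in 1 of 2 windows at 4 and Entpd1 in 1 of 2 windows at -227, and P2rx4 did not hold it; P2ry6 was not searched. Of all 32851 windows in the table, 13.6% held the word on either strand, so a match is a description and not a binding site.

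P2ry12 was high in every array. In the PBS group it was 13.31 in _2008, 12.22 and 12.46 in _2010 and 13.63 in _2013. In the LPS group it was 13.64 in _2008, 13.38 and 13.43 in _2010 and 13.73 in _2013. The LPS array or arrays of each year lay above the PBS mean of that year, but the groups overlapped, and the gap was 1.06 in _2010 against 0.33 in _2008 and 0.10 in _2013. The fitted LPS minus PBS difference was 0.64 ± 0.18 (SE, 4 arrays against 4; 95% interval 0.26 to 1.01; limma adjusted p = 0.176, unadjusted p = 0.00237). Without the 2 PBS arrays of _2010 it was 0.22 ± 0.19.

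In DAP12KO, P2ry12 read 13.77, 13.61, 13.67 and 14.08, and in UT it ran from 13.48 through a median of 13.78 to 14.001. These groups overlapped and the DAP12KO minus UT difference was 0.06 ± 0.18 (95% interval -0.32 to 0.43). A change of more than 0.43 in either direction therefore lies outside that interval. The group means ran DAP12KO 13.78 ± 0.21 (SD, n = 4), UT 13.76 ± 0.18 (n = 6), LPS 13.54 ± 0.17 (n = 4) and PBS 12.91 ± 0.67 (n = 4). The ranges of all neighbours in this order overlapped, and only the step from UT to LPS was larger than the SDs of the groups beside it. These means pool label years, and UT had no arrays of _2008 or _2010. Within _2013 the LPS array was at 13.73 and the UT mean at 13.73.

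P2ry13 separated the arrays by label year more than by treatment. It was 11.98 in the PBS array of _2008, 11.20 and 11.01 in those of _2010 and 12.999 in that of _2013. The LPS arrays were at 11.88, at 12.36 and 12.06, and at 12.81 in the same years. LPS was therefore above PBS by 1.10 in _2010 and below it by 0.10 in _2008 and by 0.19 in _2013. The fitted difference was 0.48 ± 0.24 (95% interval -0.02 to 0.98; limma adjusted p = 0.425), and it was -0.14 ± 0.24 without the PBS arrays of _2010.

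The DAP12KO arrays gave P2ry13 values of 13.12, 13.02, 13.21 and 13.14, the smallest SD of any group among the brightest probe sets. UT ran from 12.58 through a median of 13.24 to 13.27, with the lowest value in the UT array of _2013 numbered 2. The DAP12KO minus UT difference was 0.05 ± 0.24 (95% interval -0.45 to 0.55). The means of DAP12KO and UT, 13.12 ± 0.08 and 13.08 ± 0.27 (SD), differed by less than the SD of either group. Those of LPS, 12.28 ± 0.41, and PBS, 11.80 ± 0.90, differed by less than the SD of PBS and by more than that of LPS.

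P2ry6, the receptor for UDP that is known for promoting phagocytosis in microglia, differed widely between label years. The PBS arrays read 11.57 in _2008, 11.61 and 10.45 in _2010 and 13.63 in _2013. The LPS arrays read 11.78, then 12.99 and 11.98, then 13.84. Every LPS array was above the PBS mean of its year, by 0.21 in _2008, 1.46 on average in _2010 and 0.21 in _2013, although the groups as wholes overlapped.

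The fitted LPS minus PBS difference of P2ry6 was 0.83 ± 0.30 (95% interval 0.19 to 1.48; limma adjusted p = 0.275, unadjusted p = 0.0146), and 0.21 ± 0.32 without the PBS arrays of _2010. DAP12KO arrays were at 13.74, 13.66, 14.34 and 13.85 and UT arrays ran from 13.38 through 13.86 to 14.14. Their difference was 0.21 ± 0.30 (95% interval -0.43 to 0.86). The 10 arrays of _2013, from all 4 groups, spanned 13.38 to 14.34, above all 6 arrays of _2008 and _2010, whose highest value was 12.99.

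P2rx4, an ATP-gated channel that also resides in lysosomes, varied widely among arrays. By its brightest probe set the PBS arrays were at 7.24 in _2008, 9.39 and 9.19 in _2010 and 11.20 in _2013. The LPS arrays were at 9.69, at 10.36 and 10.72, and at 11.18. LPS was higher in _2008 and _2010, by 2.45 and 1.25, and equal to PBS within 0.02 in _2013. The fitted difference was 1.23 ± 0.64 (95% interval -0.12 to 2.59; limma adjusted p = 0.450). The other P2rx4 probe sets gave 0.86 ± 0.51 (1452527_a_at), 0.76 ± 0.81 (1446429_at) and 0.02 ± 0.64 (1441772_at) for LPS minus PBS. Within _2013 their differences were 0.03, -1.65 and -0.03 in the same order.

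In DAP12KO the brightest P2rx4 probe set read 10.83, 11.10, 11.73 and 10.98, and the UT arrays of _2013 read 10.56, 7.10, 9.99 and 10.84. All 4 DAP12KO arrays lay above the UT mean of _2013, and the ranges overlapped at one end, where the lowest DAP12KO array and the highest UT array met. The fitted difference, 1.54 ± 0.64 (95% interval 0.18 to 2.89; limma adjusted p = 0.874, unadjusted p = 0.0289), rested in part on the UT array numbered 2, at 7.10, and was 0.70 ± 0.39 without it. That array also had the Gapdh 3' minus 5' difference of 2.23; the part of RNA quality in its low value was not tested. The other P2rx4 probe sets were lower in DAP12KO, by values of -0.48 ± 0.51 (1452527_a_at), -0.12 ± 0.81 (1446429_at) and -0.34 ± 0.64 (1441772_at), so the probe sets of this gene disagreed in sign.

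P2rx7 is the low-affinity ATP channel that triggers the NLRP3 inflammasome and the release of interleukin 1. The PBS arrays were at 10.29 in _2008, 10.49 and 10.34 in _2010 and 10.93 in _2013. The LPS arrays were at 10.91, at 11.84 and 11.45, and at 10.84, so the _2010 pair of LPS was the highest of all 18 arrays, and the groups overlapped through the PBS array of _2013. The fitted difference was 0.75 ± 0.40 (95% interval -0.10 to 1.60; limma adjusted p = 0.465), with within-year values of 0.61, 1.23 and -0.09. The other P2rx7 probe sets gave 0.64 ± 0.59 (1422218_at) and 0.03 ± 0.72 (1419853_a_at) for LPS minus PBS. Their differences in _2008, _2010 and _2013 were 0.29, 1.90 and -1.55 for 1422218_at. For 1419853_a_at they were -1.42, 1.56 and -1.57.

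In DAP12KO, P2rx7 was 10.57, 10.92, 9.27 and 10.89, and in UT it ran from 9.76 through 10.89 to 11.14, again with the UT array of _2013 numbered 2 lowest. The difference was -0.22 ± 0.40 (95% interval -1.07 to 0.63). The other probe sets of P2rx7 gave 0.70 ± 0.59 (1422218_at) and 0.30 ± 0.72 (1419853_a_at) for the same comparison. The PBS arrays of _2010 were not the lowest for the brightest P2rx7 probe set, unlike for P2ry12, P2ry13 and Entpd1.

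By its brightest probe set, Entpd1 was level across most of the study. This probe set read 12.87 in the PBS array of _2008, 11.57 and 11.16 in those of _2010 and 12.69 in that of _2013. In LPS it read 12.64, then 12.75 and 12.59, then 12.53, an SD of only 0.09. The within-year differences were -0.23, 1.31 and -0.16, so by this probe set LPS exceeded PBS in _2010 alone. Its fitted difference of 0.56 ± 0.27 (95% interval -0.03 to 1.14; limma adjusted p = 0.428) became -0.19 ± 0.27 without the PBS arrays of _2010. For LPS minus PBS the other Entpd1 probe sets gave 0.95 ± 0.49 (1423326_at) and 1.00 ± 0.57 (1453586_at). Their differences in _2008, _2010 and _2013 were -0.75, 2.27 and 0.02 for 1423326_at and 0.38, 2.34 and -1.04 for 1453586_at.

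In DAP12KO, Entpd1 was 12.99, 12.03, 12.63 and 12.30, and in UT it ran from 12.45 through 12.65 to 12.89. The difference was -0.06 ± 0.27 (95% interval -0.64 to 0.52). The other Entpd1 probe sets gave -0.05 ± 0.49 (1423326_at) and -0.42 ± 0.57 (1453586_at). Probe set 1423326_at depended strongly on the year: the arrays of _2012 and _2013 read 10.30 to 11.68 and those of _2008 and _2010 read 5.62 to 8.75, a step that the brightest probe set of the same gene did not show.

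Adora3, the A3 adenosine receptor coupled to inhibitory G proteins, was close to the lowest values of the table in many arrays. Its brighter probe set read 3.20, 2.19, 2.80 and 4.02 in PBS (_2008, _2010, _2010 and _2013) and 5.44, 3.71, 3.84 and 5.14 in LPS. LPS was higher by 2.25, 1.28 and 1.12 in _2008, _2010 and _2013, in all 4 arrays, with overlapping groups. The fitted difference was 1.48 ± 0.94 (95% interval -0.52 to 3.49; limma adjusted p = 0.551). Among the brightest probe sets this was the only one whose LPS minus PBS difference exceeded 1 in each of the 3 years. In _2008 and _2013 that compares 1 array with 1. The dimmer Adora3 probe set, 1430482_at, gave -2.71, 0.13 and 0.0 in _2008, _2010 and _2013.

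DAP12KO arrays were at 3.05, 3.05, 6.27 and 8.54 for Adora3, the largest SD of any group among the brightest probe sets, against 3.42 to 5.15 in UT with a median of 3.89. The difference was 1.00 ± 0.94, and it was -0.11 without the array at 8.54. The dimmer probe set, 1430482_at, was below 2.49 in 14 of 18 arrays and at 8.08 in the DAP12KO array numbered 4. The 2 Adora3 probe sets differed in sign for LPS minus PBS, where the dimmer gave -0.61 ± 1.04.

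The group means pool label years, and DAP12KO and UT had no arrays of _2008 or _2010. A step between LPS or PBS and DAP12KO or UT therefore also compares label years. The order of the group means varied by gene, and neighbours in it always had overlapping ranges. For P2ry6 it was DAP12KO 13.90 ± 0.30 (SD), UT 13.80 ± 0.28, LPS 12.65 ± 0.95 and PBS 11.81 ± 1.32. For P2rx4 it was DAP12KO 11.16 ± 0.39, LPS 10.49 ± 0.63, UT 10.03 ± 1.48 and PBS 9.26 ± 1.62, and for P2rx7 it was LPS 11.26 ± 0.48, UT 10.72 ± 0.50, PBS 10.51 ± 0.29 and DAP12KO 10.41 ± 0.78. For Entpd1 it was UT 12.65 ± 0.18, LPS 12.63 ± 0.09, DAP12KO 12.49 ± 0.42 and PBS 12.07 ± 0.84, and for Adora3 it was DAP12KO 5.23 ± 2.68, LPS 4.53 ± 0.88, UT 4.09 ± 0.60 and PBS 3.05 ± 0.77. The steps larger than the SDs of both groups beside them were UT to LPS for P2ry12, P2ry13 and P2ry6, DAP12KO to LPS for P2rx4, LPS to UT for P2rx7 and UT to PBS for Adora3. LPS and PBS were not neighbours for P2rx7 and Adora3, where UT lay between them, and their means differed by more than both SDs for these genes. By these pooled means PBS was the lowest of the groups for 6 of the 7 genes. Within _2013, with 1 LPS and 1 PBS array, LPS and UT were 13.73 and 13.73 for P2ry12. They were 12.81 and 13.07 for P2ry13, 13.84 and 13.68 for P2ry6 and 10.84 and 10.63 for P2rx7. LPS and DAP12KO were 11.18 and 11.16 for P2rx4, and UT and PBS 4.23 and 4.02 for Adora3. PBS of _2013 was below the other groups for P2ry12, P2ry6 and Adora3, and not for P2ry13, P2rx4 and Entpd1.

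Viewed across the pathway, all 7 brightest probe sets were higher in LPS than in PBS by the fit, from 0.48 to 1.48 with a median of 0.75, against a median of -0.10 over all probe sets tested; none passed the adjusted threshold. Of the 15 probe sets, 14 were higher. Within _2010 all 15 were higher, where 44.3% of all probe sets were, with medians of 1.28 for the members and -0.06 for all. Within _2008 the count was 9 of 15 (43.8% of all probe sets were higher) and within _2013 it was 5 of 15 (39.9% of all), with 1 array against 1 in each year.

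**Figure D2:**
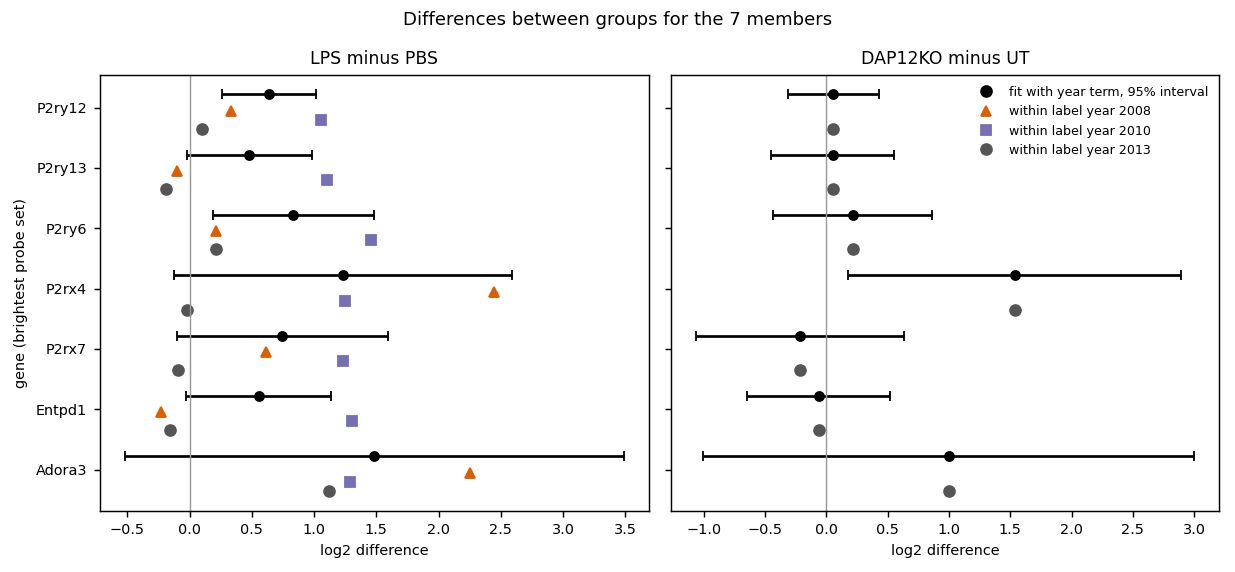
Log2 differences (horizontal axis) of the 7 genes (vertical axis) for LPS minus PBS and DAP12KO minus UT. Black points give the fit with the year term and its 95% interval, and coloured points the plain difference of means within a label year: the _2010 values of LPS minus PBS lie between 1.06 and 1.46, and the _2013 values between -0.19 and 1.12.

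The same 2 PBS arrays set the low end of 7 of the 15 probe sets: 1 each of P2ry12, P2ry13, P2rx7 and Adora3 and all 3 of Entpd1. Of all tested probe sets, 4.92% had both of these arrays as the lowest 2. The mean of the microglia markers was 1.25 lower in the PBS arrays of _2010 than in the LPS arrays of _2010, and it differed by -0.02 in _2008 and by 0.01 in _2013 between LPS and PBS. P2ry13 minus that mean lay between -0.10 and 0.33 in the PBS arrays of _2010, between -0.25 and 0.0060 in the other PBS arrays and between -0.33 and -0.0005 in LPS. For Entpd1 the same quantity was 0.05 to 0.69, -0.30 to 0.64 and -0.47 to 0.47, so that by these probe sets neither was low in the PBS arrays of _2010 relative to the marker mean. Another Entpd1 probe set, 1423326_at, was low there on the same scale, at -5.49 to -5.11, against -4.59 to -1.55 in LPS and -3.48 to -1.56 in PBS of the other years.

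With the microglia marker mean as a covariate, a fit added after the data were seen, LPS minus PBS was 0.31 ± 0.20 for P2ry12, -0.01 ± 0.26 for P2ry13, 0.33 ± 0.37 for P2ry6, 0.21 ± 0.51 for P2rx7 and -0.02 ± 0.30 for Entpd1. P2rx4 and Adora3 kept values of 1.35 ± 0.89 and 1.81 ± 1.30. All 22 microglia markers were higher in LPS by the main fit, with a median of 0.56 and none past the adjusted threshold, and 16 of 17 neuron markers were lower, with a median of -1.03. The members were thus among many microglial genes with the same direction.

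**Figure D3:**
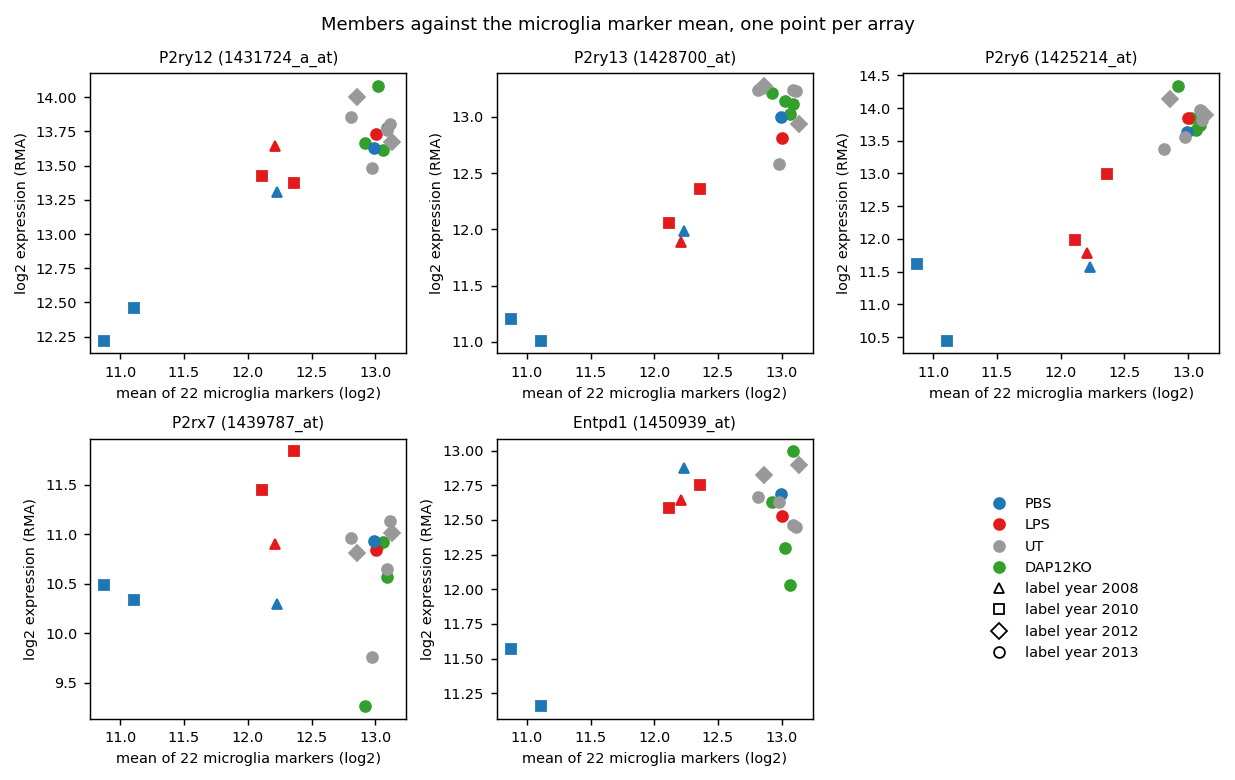
Log2 expression of 5 member genes (vertical axes) against the mean of 22 microglia markers (horizontal axes), 1 point per array, coloured by group and shaped by label year. The 2 PBS arrays of _2010 stand at marker means of 10.88 and 11.11, left of the other 16 arrays, and are low for P2ry12, P2ry13 and Entpd1.

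For DAP12KO minus UT, 5 of the 7 brightest probe sets were higher and 2 lower, from -0.22 to 1.54, with a median of 0.06 against 0.02 over all probe sets tested, and 8 of the 15 probe sets were higher. The microglia marker mean of DAP12KO differed from that of UT in _2013 by 0.03. The neuron marker mean was 0.49 lower and the border-associated macrophage marker mean 1.37 lower in DAP12KO; the part of these in the member values was not tested. By the brightest probe sets, the 95% intervals for P2ry12, P2ry13, P2ry6 and Entpd1 stayed within 0.86 of 0 on both sides. Those for P2rx4, P2rx7 and Adora3 reached beyond 1. The other Entpd1 probe sets also did, with -1.08 to 0.99 (1423326_at) and -1.64 to 0.79 (1453586_at).

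The test of the difference between the LPS and the DAP12 responses called no member. P2ry12 had the lowest p, with a difference of 0.58 ± 0.25 (95% interval 0.05 to 1.11; limma adjusted p = 0.589). The other 6 genes gave values from -0.30 for P2rx4 to 0.96 for P2rx7. PBS minus UT, which compares the control groups, gave values from -0.41 for P2ry13 to 0.96 for P2rx4, all with a limma adjusted p of 0.998. PBS and UT shared the year _2013 alone, with 1 PBS array in it. Without the year term P2ry12, P2ry13 and P2ry6 passed for PBS minus UT, at -0.86, -1.28 and -1.98 (limma adjusted p = 0.0493, 0.0401 and 0.0401), so these calls rest on a comparison between label years.

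**Figure D4:**
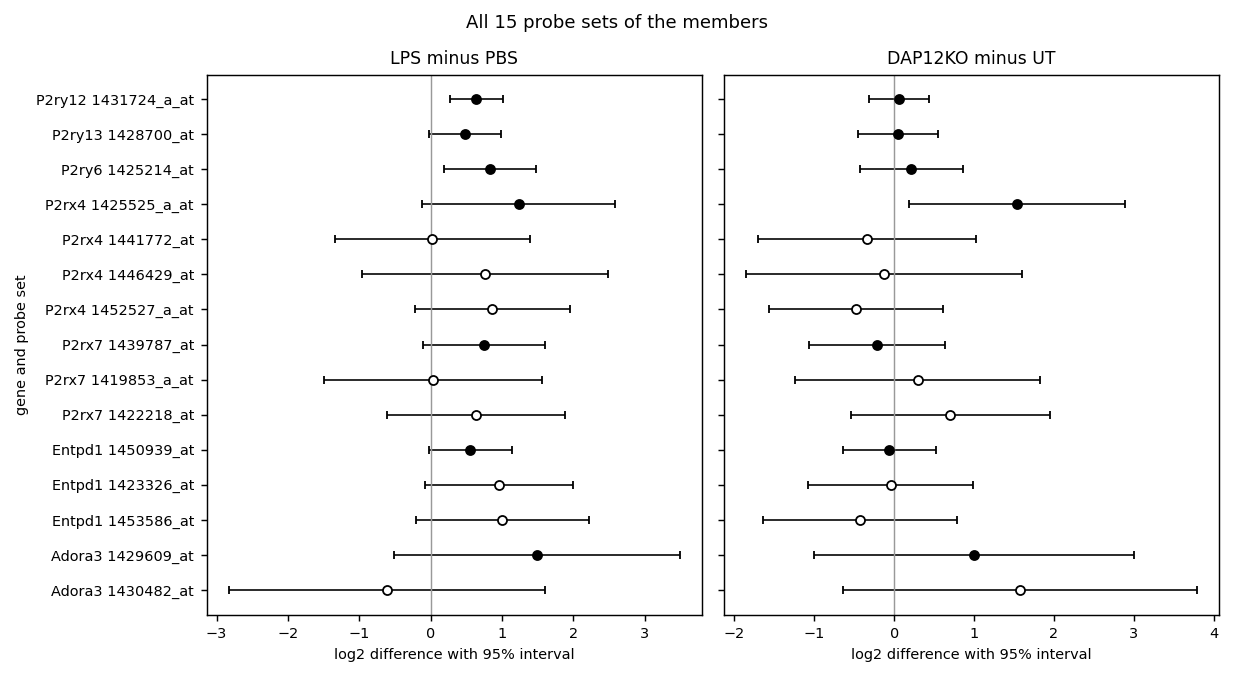
Fitted log2 differences (horizontal axis) with 95% intervals for all 15 probe sets (vertical axis), with filled points for the brightest probe set of a gene and open points for the others. For LPS minus PBS 14 of 15 points lie above 0; for DAP12KO minus UT the P2rx4, P2rx7 and Adora3 probe sets scatter from -0.48 to 1.57.

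How the members varied among themselves is given as a description over 18 arrays that share label years and the PBS arrays of _2010. P2ry13 and P2ry6 were most alike (Pearson r = 0.948, and 0.922 over the 16 arrays without PBS of _2010). P2ry12 and P2ry13 had r = 0.890, and 0.746 over 16 arrays. Entpd1 correlated with P2ry12 at 0.729 over 18 arrays and at -0.204 over 16, so that likeness rested on the 2 PBS arrays. P2rx7 stood apart from the P2Y genes, with r between -0.04 and 0.17.

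Of all other genes, Tmem119, Lpar6 and Parvg were most like P2ry13 (r = 0.966, 0.962 and 0.961), and Tmem119 is itself a microglia marker. Fcgr3, Rgs10 and Lpar6 were most like P2ry6 (r = 0.973, 0.968 and 0.965). Cd33, Dock8 and Sirpa were most like P2ry12 (r = 0.952, 0.940 and 0.927), and over 16 arrays these values were 0.735, 0.808 and 0.639. Sparc, Tbxas1 and Csf1r led for Entpd1 (r = 0.867, 0.862 and 0.858), falling to between 0.216 and 0.469 over 16 arrays. P2rx4 was most like Timm9 (0.856), P2rx7 most like Selenbp1 (0.821) and Adora3 most like Polg2 (0.828), and these values were 0.865, 0.823 and 0.876 over 16 arrays.

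Many genes of the rest of the pathway were dim, and none of those tested passed in LPS minus PBS or DAP12KO minus UT. Of 77 named genes outside the members, 8 had no single-gene probe set here and are not analysed here, the other adenosine receptors Adora1, Adora2a and Adora2b among them. Of the other P2Y receptors, 5 of 5 (P2ry1, P2ry2, P2ry4, P2ry10 and P2ry14) had means under 2.49, too low to test, and P2ry14 reached 4.84 in its highest array. Of the other P2X channels only P2rx1 could be tested, at -0.29 ± 0.92 for LPS minus PBS and -0.36 ± 0.92 for DAP12KO minus UT, while P2rx2, P2rx3, P2rx5 and P2rx6 were too low.

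Of 15 other ectonucleotidases and adenosine enzymes with probe sets, 9 were tested and none passed in either comparison; 4 were higher and 5 lower in LPS than PBS. Entpd5, a nucleoside diphosphatase of the endoplasmic reticulum, was 2.43 ± 0.69 higher in DAP12KO than UT (limma adjusted p = 0.675) and -1.28 ± 0.69 for LPS minus PBS. Enpp4 gave 1.05 ± 0.56 for LPS minus PBS, and Ada, which converts adenosine to inosine, gave -0.86 ± 0.67 for DAP12KO minus UT. Nt5e (CD73), which makes adenosine from AMP, had a mean of 2.48 and was not tested.

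Of 6 tested genes of nucleoside transport and ATP release, none passed, with 3 higher and 3 lower in LPS. Slc29a3, a lysosomal nucleoside transporter, was at 0.88 ± 0.30 and Slc29a4 at -1.80 ± 0.63 for LPS minus PBS (limma adjusted p = 0.249 and 0.261). For DAP12KO minus UT the lowest p were those of Slc17a9, the vesicular nucleotide transporter, at 1.43 ± 0.75, and Slc29a1, at -0.38 ± 0.35. Panx1, an ATP release channel, gave -1.40 ± 0.58 for LPS minus PBS (limma adjusted p = 0.338).

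Among 22 coupling and effector genes none passed, with 13 higher and 9 lower in LPS and a median of 0.17. Rgs2, which limits Gq signalling, was 0.62 ± 0.17 higher (limma adjusted p = 0.174), and Gnaq, the Gq subunit itself, was at -1.98 ± 0.80 (limma adjusted p = 0.330). For DAP12KO minus UT, 10 were higher and 12 lower, and Plcb3 and Rock1 had the lowest p, at -0.69 ± 0.42 and 0.48 ± 0.39.

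The 9 inflammasome partners of P2rx7 included none past the threshold. Of these, 8 were higher in LPS than PBS, with a median of 0.57 against -0.10 over all probe sets tested. All 22 microglia markers were also higher in LPS, with a median of 0.56. In DAP12KO against UT, 8 of 9 partners were higher, with a median of 0.36 against 0.02 over all probe sets tested. Within _2013, 51.2% of all probe sets were higher in DAP12KO than UT. In LPS minus PBS, Il1a was at 1.18 ± 0.45 (limma adjusted p = 0.302) and Txnip at 0.72 ± 0.35. In DAP12KO minus UT, Casp1 was at 1.05 ± 0.50 (limma adjusted p = 0.898) and Il1b at 2.71 ± 1.51. Among the neighbours of P2ry12 on chromosome 3, Med12l, in whose locus P2ry12 and P2ry13 lie, was at 1.43 ± 0.46 for LPS minus PBS (limma adjusted p = 0.223) and Igsf10 at -2.05 ± 0.95, so that the genes of this stretch did not share a direction.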

How the data were processed

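Gene expression was measured on Affymetrix whole-genome mouse arrays. The authors deposited log2 values normalized by RMA, per the submitters' processing notes, for 45101 probe sets in 18 arrays (median per array 2.78 to 3.17); the sources used here name no genome build. Gene names came from the platform annotation: 34958 probe sets name 1 gene, 932 several and 9211 none. Probe sets that name 1 gene and whose mean reached 2.49, the 40th percentile of all probe sets, were tested, 22512 in all; all 15 member probe sets did, 2 of them below 2.49 in 14 arrays.

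One model was fitted to all 18 arrays with limma 3.58.1 (R 4.3.3): group plus label year, moderated with a trend, 11 residual degrees of freedom, two-sided, Benjamini-Hochberg adjustment over all tested probe sets, threshold 0.05. Differences are log2 values ± SE. The numbers of arrays limit the precision. Replicates are separate arrays of embryos pooled per dam. PBS and LPS of _2010 (2 pairs) and DAP12KO and UT of _2013 (2 pairs) share replicate numbers within a year, and the PBS array of _2013 shares a number with 1 array each of DAP12KO and UT, left out of the block; these are too few pairs to show pairing, so no block entered the main fit.

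All member probe sets are given; of the pathway lists, genes past the threshold and the 2 with the lowest p in each comparison are named, with Panx1, Nt5e and the untested P2Y and P2X receptors named after their values were seen. Likeness was Pearson r over the brightest tested probe sets. The members and lists were chosen with earlier results of these data known. Alternatives were the year term, arrays, filter, variance prior, array weights, covariates, replicate block and leaving out each array. Code was tested on simulated data. A planned comparison of the members' protein sequences was not run.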

Additional observations from a re-analysis of the deposited data

Results flagged for a closer look

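Dixon's gap criterion was applied to 60 sets of 4 or 6 arrays (15 probe sets in 4 groups). By this criterion 8 single arrays, in 5 probe sets, stood far from the others of their group. Chance alone meets the criterion in about 1 of 20 sets, a rate that assumes values without ties. That rate does not hold for Adora3 1430482_at. In LPS and in UT its other arrays all read 2.2071, so any higher array meets the criterion. P2rx4 1441772_at was also dim, below 2.49 in 14 arrays. The count of 8 therefore cannot be weighed against chance. The UT array of _2013 numbered 2 was the lowest of its group for P2rx4 1425525_a_at, at 7.10 with the next at 9.99, for P2rx7 1439787_at, at 9.76 with the next at 10.65, and for Entpd1 1423326_at, at 10.30 with the next at 11.20. The UT array of _2013 numbered 6 was the highest for P2rx4 1441772_at, at 5.76 with the next at 3.19. For the dim Adora3 probe set 1430482_at, 1 array of each group was the highest: 8.08 in DAP12KO of _2013 numbered 4, 4.91 in PBS of _2008, 4.89 in UT of _2012 numbered 4 and 2.46 in LPS of _2010 numbered 1, the last still within the lowest values of the table.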

How the results depend on the processing

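Over 33 alternatives (32 for the difference of responses), a member probe set passed the threshold in 1 for LPS minus PBS and in 1 for PBS minus UT, and in none for DAP12KO minus UT or the difference of responses. Array weights, which raised the weight of the _2010 arrays of LPS and PBS (1.57 to 2.88) over those of _2008 (0.27) and _2013 (0.65), called 1968 probe sets for LPS minus PBS and 55 for the difference, and 7 member probe sets for LPS minus PBS: P2ry12 0.88, P2ry13 0.90, P2ry6 1.36, P2rx7 1.06 and all 3 of Entpd1 (brightest 1.07). Without the year term the counts were 1 for LPS minus PBS and 466 for PBS minus UT, with 3 member probe sets.

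The counts of all probe sets moved further. For LPS minus PBS (6) they were 0 with only the compared groups, 203 with only the arrays of _2013 (1 LPS array against 1 PBS array, assumed to vary like the other groups), 11 with 1 probe set per gene, 0 with the stricter filter, 1 with the neuron covariate, 3 with the Gapdh covariate, 21 without both PBS arrays of _2010 and 11 without the LPS and PBS arrays of _2010. For the difference of responses (1) they were 148 with only _2013, 0 with 1 probe set per gene, 2 without a filter, 0 with the stricter filter, 4 under each removal of _2010 arrays and 0 with either the microglia or the Gapdh covariate. For PBS minus UT (14) they were 83 with only the compared groups, 115 with only _2013, 8 with 1 probe set per gene, 37 without a filter, 0 with the stricter filter, 2 with the neuron covariate and 8 with the Gapdh covariate. Leaving out 1 array at a time gave 1 to 243 for LPS minus PBS, 0 to 5 for DAP12KO minus UT, 0 to 32 for the difference and 6 to 150 for PBS minus UT, and 0 member probe sets throughout.

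Fits with the replicate number as a block called 1 probe set for LPS minus PBS and 2 for PBS minus UT and no member. Same-numbered arrays of _2010 deviated together (r = 0.52), and those of DAP12KO and UT did not (r = -0.01 and 0.00). With 2 arrays per group in _2010, the deviations of a group mirror each other. Both same-numbered pairs therefore share a single r, which cannot be set beside those of groups with 4 arrays. The pairing was not established.

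Signs turned as follows. For LPS minus PBS, with only _2013: P2ry13 -0.19, P2rx4 -0.020, P2rx7 -0.090 and Entpd1 -0.16; without both PBS arrays of _2010, or without the LPS and PBS arrays of _2010: P2ry13 -0.14 and Entpd1 -0.19; with the microglia covariate: P2ry13 -0.0070 and Entpd1 -0.018. For DAP12KO minus UT, P2ry13 was -0.050 with array weights, -0.026 with the neuron covariate and -0.046 with the Gapdh covariate, and the neuron covariate also gave P2ry6 -0.063 and P2rx7 0.14. For the difference, P2rx4 was 0.11 without the year term, 0.10 with array weights and 0.12 with the neuron covariate; only _2013 gave P2ry13 -0.24, P2ry6 -0.0007 and Entpd1 -0.095, each removal of _2010 arrays gave P2ry13 -0.19, P2ry6 -0.0029 and Entpd1 -0.13, and the microglia covariate gave P2ry13 -0.039. For PBS minus UT, P2rx4 was -0.77 without the year term, P2rx7 and Entpd1 were 0.30 and 0.14 with only the compared groups or only _2013, 0.12 and 0.16 under each removal of _2010 arrays and 0.15 and 0.070 with the microglia covariate, and the neuron covariate gave P2ry6 0.18 and Entpd1 0.16.

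Leaving out 1 array at a time also turned signs, within these ranges: for DAP12KO minus UT, P2ry12 -0.042 to 0.12, P2ry13 -0.11 to 0.11, P2rx7 -0.51 to 0.17, Entpd1 -0.23 to 0.091 and Adora3 -0.11 to 1.73; for the difference, P2rx4 -0.71 to 0.54 and Adora3 -0.24 to 1.59; for PBS minus UT, P2rx4 -0.087 to 1.58, P2rx7 -0.81 to 0.30 and Entpd1 -0.81 to 0.14. The cause of each change was not tested.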
